A study of Mus musculus with 6 samples.

Results

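The 45 genes described here are cell cycle and proliferation genes, a list that runs from the D-type cyclins that start a division to the motors and checkpoint kinases that finish it. They were chosen by name, and all 45 were found among the 34745 genes of the deposited mouse prostate table. Prostates of male C57BL/6 mice, young adults when the study began, were sequenced as RNA in 2 groups of 3. Mice of the T + E2 group carried 1 slow-release pellet of testosterone and estradiol at a time under the skin for 12 weeks, renewed each month, and mice of the control (CON) group had the same skin operations without a pellet. The 6 libraries stand for 6 mice, which were not castrated as far as the study's methods say. Hormone levels in these mice are not given in the sources used here. The question put to the list was whether genes of dividing cells were higher or lower in prostates exposed to both hormones.

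A cell that enters division first raises D-type cyclins, which with Cdk4 release the E2F transcription factors from the retinoblastoma protein. E2F factors then switch on genes for loading the MCM helicase onto DNA, for making nucleotides and for copying the genome, and a later wave driven by B-Myb with the MuvB complex, FoxM1 and NF-Y raises the genes of mitosis, which the DREAM complex holds down in resting cells. Most cells of an adult prostate rest outside the cycle, and androgen is known both to start divisions in a regressed prostate and to hold the secretory cells of a full-sized one in rest.

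Reads counted on genes totalled 14816146 to 16555549 per mouse, and the 45 genes together took 0.0483 to 0.0558% of them. The values of single genes are counts per 1000000 after TMM scaling between libraries (CPM), and a count of 3, the smallest amount taken as different from none, was worth 0.183 to 0.208 CPM, a limit that covers counting error only. Tests used edgeR's quasi-likelihood method with Benjamini-Hochberg adjustment over all 15580 genes with enough reads, and a gene was called higher or lower at an adjusted p under 0.05. Positive log2 fold changes mean higher in T + E2. The replicate 2 libraries of both groups stood apart in markers of the seminal vesicle, a gland that lies against the prostate. These 6 genes summed to 10300 CPM in CON mouse 2 and 642 CPM in T + E2 mouse 2, against 0.629 to 4.04 CPM in the other 4 mice, and markers of fat reached 143 CPM in CON mouse 2 against 11.8 to 36.7 CPM elsewhere. Markers of the prostate itself were present in every mouse, with the 8 luminal genes at 16600 to 21400 CPM in CON and 5250 to 5730 CPM in T + E2. Most of that gap was Pbsn, a secreted protein of the prostate (12400 to 16600 against 1260 to 1750 CPM), and the other 7 luminal genes summed to 4220 to 4750 and 3980 to 4130 CPM. Counts below are therefore also given without both replicate 2 libraries.

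Few cell cycle genes differed between the groups, and those that did moved by less than 1 on the log2 scale. Of 45 genes, 40 had enough reads to be tested. Ccnd2 and Rrm1 were higher in T + E2 and Top2a was lower, so that 2 of 40 rose and 1 fell, 7.5% in all. Among all tested genes 10.4% were higher, 9.25% were lower and 19.6% were called in either direction. With the stricter rule of the study's methods, which also asks for an absolute log2 fold change over 1, none of the 40 was called against 7.64% of all tested genes. At an unadjusted p under 0.05 from edgeR there were 7 of the 40. Over all tested genes at least the 19.6% called above passed that cut, as an adjusted p is never below its unadjusted one. DESeq2 called 4 of the 45 genes, the same 3 and Ccnd1, and 3215 of 17655 genes over the whole table. Under the stricter rule it called none of the 45. Without both replicate 2 libraries edgeR called none of 40, with 4 at an unadjusted p under 0.05. That fit on fewer mice called 1354 of 15646 genes over the whole table, and at least these passed its unadjusted cut.

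The 40 estimates centred on no change. Their median log2 fold change was 0.02 and they ran from -0.62 for E2f1 to 0.54 for Ccnd2 and Ccne2, with 22 above 0 and 18 below. The median absolute change was 0.17, against 0.26 for all tested genes. For 29 of the 40 the whole 95% interval lay between -1 and 1, and in 34 the upper bound was under 1. The intervals reached 0.21 to 1.22 to each side of the estimate, with a median of 0.57, so changes smaller than that could not be seen for many of these genes at this depth. In 8 of 40 genes (20%) the values of the 3 T + E2 mice did not overlap those of the 3 CON mice, against 40.7% of all tested genes. They were Ccnd2, Rrm1, Cdc20 and Cdkn1a with T + E2 above, and Top2a, Ccnd1, Mcm2 and E2f1 with T + E2 below.

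Low expression was common in the list. The median level of the 40 genes was 3.99 CPM, against 19.4 CPM for all tested genes. At or under 3.99 CPM, 14.5% of 3420 tested genes were called and none of 20 cell cycle genes, of which 1 had an unadjusted p under 0.05 from edgeR and none was called by DESeq2. Above it the shares were 21.1% of 12160 genes and 3 of 20 cell cycle genes (15%).

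**Figure D1:**
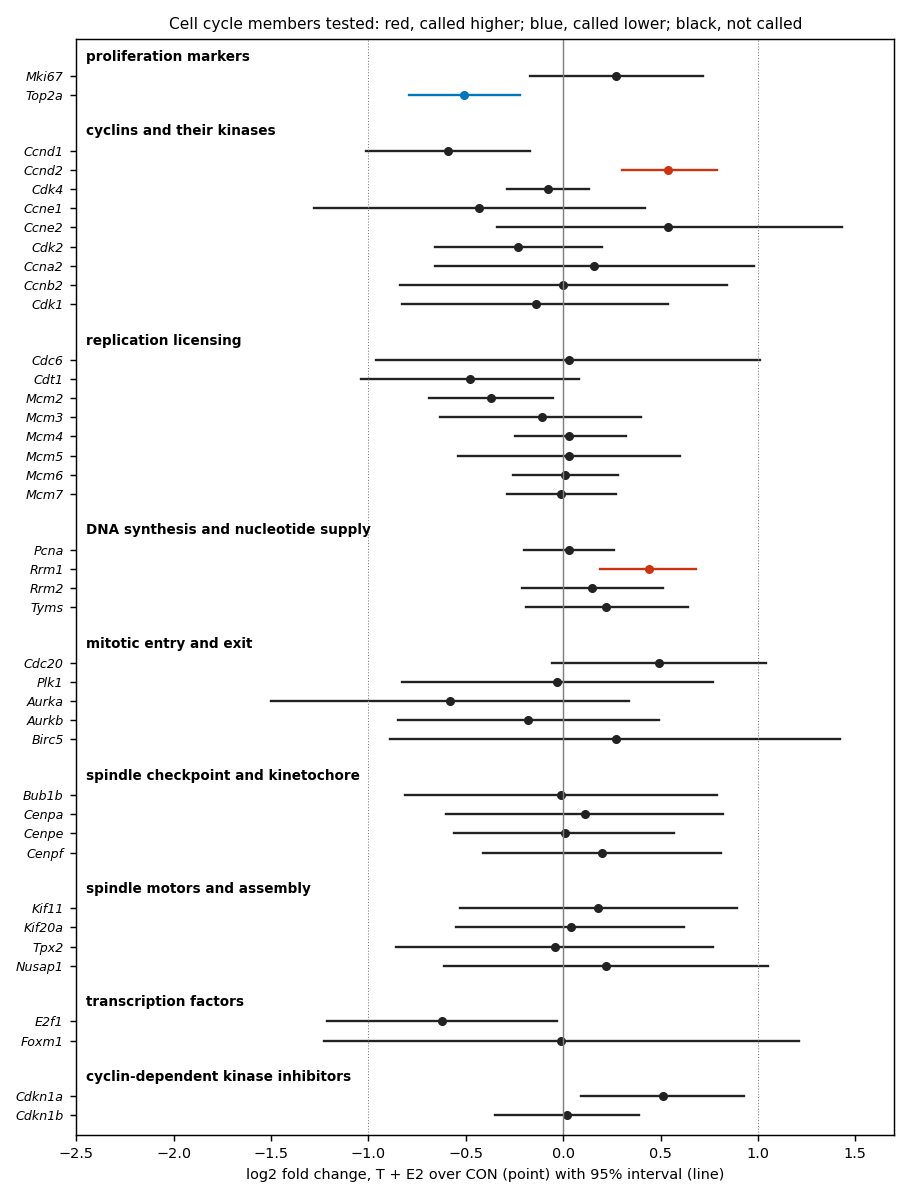
Log2 fold change (T + E2 over CON) with its 95% interval for each of the 40 tested cell cycle genes, grouped by role on the vertical axis. The points of 22 genes lie right of 0 and those of 18 lie left, and only Ccnd2 and Rrm1 (red) and Top2a (blue) were called.

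Top2a (chromosome 11, 98992943 to 99024189) encodes topoisomerase II alpha, which untangles copied chromosomes and is made mainly in dividing cells, and it was one of a pair of proliferation markers in the list. It had 17.0, 16.7 and 16.4 CPM in CON and 11.8, 10.4 and 13.0 CPM in T + E2. All 3 CON mice were above all 3 T + E2 mice, and the CON values lay within a narrow band. The mean was 16.7 ± 0.272 CPM (SD, n = 3) in CON and 11.8 ± 1.3 CPM (SD, n = 3) in T + E2. The log2 fold change was -0.51 (standard error 0.12, 95% interval -0.79 to -0.22, edgeR adjusted p = 0.0247). That call was held by a small margin. Without both replicate 2 libraries the estimate was -0.43 with an edgeR adjusted p of 0.147. It was also lost on leaving out any single mouse other than T + E2 mouse 3, with edgeR adjusted p-values of 0.0615 to 0.07.

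The promoter of Top2a is shown because the gene was called, and it carries letters that mark the mitotic wave of genes. It comes from RefSeq on GRCm38.p6, chr11:99024140-99024439 on the minus strand, 250 bases before the start of the gene and 50 after, and capitals mark the letters CCAAT of NF-Y and TTTGAA of the CHR element on either strand:
Top2a: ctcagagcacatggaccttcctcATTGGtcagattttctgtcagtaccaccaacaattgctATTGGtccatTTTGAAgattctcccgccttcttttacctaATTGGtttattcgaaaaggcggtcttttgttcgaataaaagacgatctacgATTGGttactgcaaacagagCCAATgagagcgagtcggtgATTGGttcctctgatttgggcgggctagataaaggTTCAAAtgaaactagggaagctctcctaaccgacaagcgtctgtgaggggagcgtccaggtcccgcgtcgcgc
It held CCAAT 6 times and TTTGAA 2 times, and none of the E2F letters that were searched.

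Mki67, the gene of the Ki-67 antigen that pathologists stain to count cycling cells, had an estimate on the other side of 0 from Top2a. The CON mice had 8.41, 8.21 and 11.0 CPM and the T + E2 mice 13.8, 9.99 and 9.68 CPM. The groups overlapped, since CON mouse 3 was above T + E2 mice 2 and 3. The log2 fold change was 0.27 (standard error 0.19, edgeR adjusted p = 0.351), and its 95% interval of -0.17 to 0.72 holds no change as well as a modest rise. The difference between the responses of the 2 markers was not tested.

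**Figure D2:**
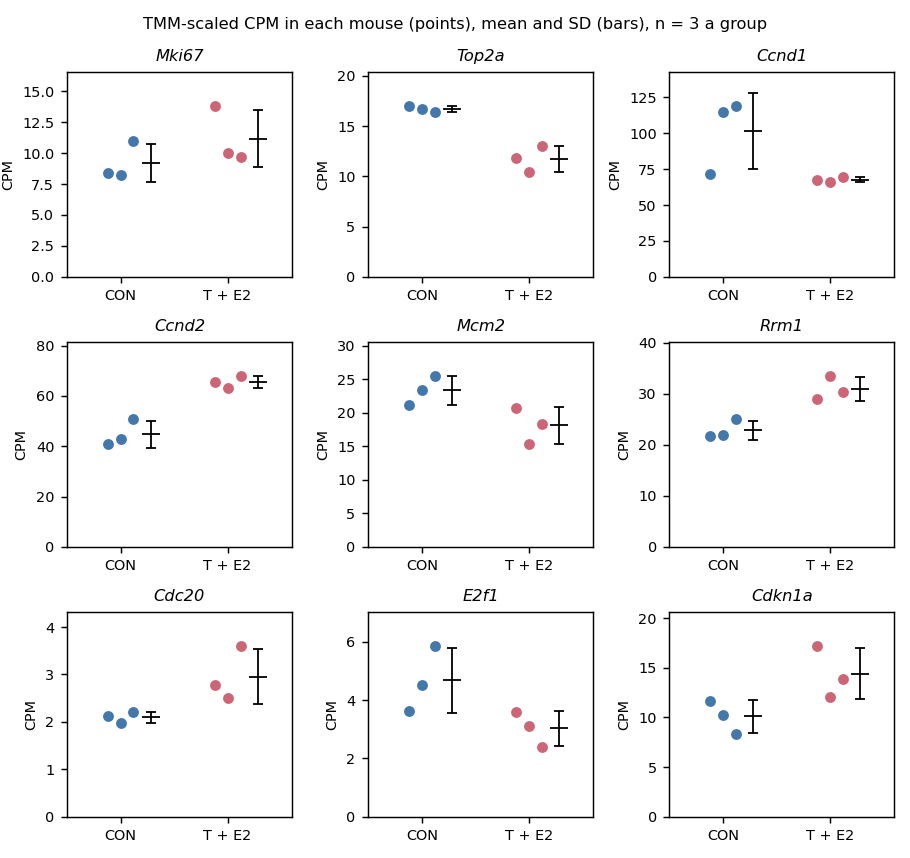
TMM-scaled CPM of Mki67 and of the 8 tested genes whose groups did not overlap, 1 point per mouse with the mean and SD of 3 mice beside it; each axis starts at 0. Top2a, Ccnd1, Mcm2 and E2f1 lie lower in all 3 T + E2 mice, Ccnd2, Rrm1, Cdc20 and Cdkn1a lie higher, and Mki67 overlaps.

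D-type cyclins are the sensors that couple growth signals to the cycle, and the estimates of the 2 on the list had opposite signs. Ccnd2 (cyclin D2, chromosome 6, 127125162 to 127152193) had 40.7, 42.9 and 50.9 CPM in CON and 65.4, 63.0 and 67.9 CPM in T + E2. Every T + E2 mouse was above every CON mouse. Ccnd2 had a log2 fold change of 0.54 and was called higher (standard error 0.11, 95% interval 0.30 to 0.79, edgeR adjusted p = 0.0101), the smallest adjusted p of the list. It was called on leaving out any single mouse, with edgeR adjusted p-values of 0.00873 to 0.0435. Without both replicate 2 libraries the estimate was again 0.54 but the edgeR adjusted p was 0.0771.

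Ccnd1 (cyclin D1, chromosome 7, 144929931 to 144939869) was the most abundant gene of the list in CON per unit of length, at 24.4 ± 6.19 FPKM (SD, n = 3). FPKM is a count divided by gene length and by library total. The CON mice had 71.4, 115 and 119 CPM and the T + E2 mice 67.5, 66.2 and 69.4 CPM. The T + E2 mice lay close together below all CON mice, and CON mouse 1 was much nearer to them than to the other two. The log2 fold change of -0.59 (standard error 0.18, 95% interval -1.01 to -0.17) had an edgeR adjusted p of 0.0569 and was not called. The adjusted p was 0.00984 with DESeq2, 0.0477 with edgeR on total-count scaling and 0.00279 with edgeR without CON mouse 1, and 0.286 with edgeR without both replicate 2 libraries.

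Within the D-type family the balance differed between the groups, a comparison that was chosen after the values had been seen and carries no test. Cyclin D2 made up 14.5, 10.5 and 11.8% of the summed FPKM of the 3 D-type cyclins in CON and 23.0, 23.3 and 23.1% in T + E2. Cyclin D1 made up 74.6, 83.0 and 80.7% and 69.6, 71.7 and 69.3%. The third family member, Ccnd3, is no member of the list. It fell by 0.64 on the log2 scale (edgeR adjusted p = 0.0446), from 40.1, 34.5 and 42.3 CPM in CON to 27.9, 17.9 and 29.2 CPM in T + E2. Weighted by counts instead of FPKM, cyclin D2 took 22.3 to 26.8% in CON and 40.7 to 42.8% in T + E2, as FPKM divides by its greater length.

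**Figure D3:**
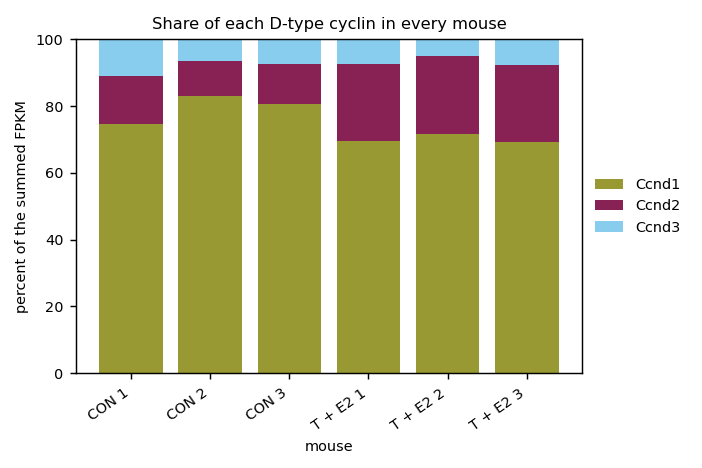
Share of Ccnd1, Ccnd2 and Ccnd3 in the summed FPKM of the 3 genes, as percent on the vertical axis, with 1 bar per mouse. The Ccnd2 part takes 10.5 to 14.5% of a CON bar and 23.0 to 23.3% of a T + E2 bar.

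Parts of both transcripts are shared with genes on the other strand, and the sources used here do not say whether counting used the strand. Ccnd1 shares 1100 of 4709 exonic bases with Oraov1, which had 414 to 459 counts in CON and 345 to 425 in T + E2. Ccnd2 shares 372 of 9409 with Gm43126, which had no counts, and 368 with 9330179D12Rik, which had 1 to 6. Exons of Cdk4, Ccne2, Cdk2, Ccna2, Mcm7, Cdc25c, Cdc20, Plk1, Kif20a and Nusap1 also overlap a gene on the other strand, and those of Foxm1 overlap 2 genes on its own strand that had at most 1 count. Kif20a (34 to 59 counts) shares 1271 of 4338 bases with Cdc23 (832 to 1046 counts). Ccna2 (23 to 51 counts) shares 510 of 4083 with Exosc9 (201 to 264 counts). Nusap1 shares 172 of 4059 with Oip5, which was called higher (log2 fold change 1.2, edgeR adjusted p = 0.0421). The part of such partners in the counts was not tested. Over at least 300 bases at 90% identity, 12 of the 45 genes resemble 23 pseudogenes, and reads may have been split between them. Top2a is 90.5% identical to Gm5362 over 346 bases, while the list of such genes holds neither Ccnd1, Ccnd2 nor Rrm1.

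Cdk4, the kinase partner of the D-type cyclins, was the second most abundant gene of the list at 11.0 ± 0.804 FPKM (SD, n = 3) in CON. It had 63.9, 73.5 and 71.2 CPM in CON and 63.2, 68.2 and 66.3 CPM in T + E2. The log2 fold change of -0.08 had a 95% interval of -0.29 to 0.13. Cdk2, which drives entry into DNA synthesis with cyclins E and A, had 11.5 to 18 CPM in CON and 11.4 to 14.8 CPM in T + E2 (log2 fold change -0.23, 95% interval -0.66 to 0.20). Its cyclins E1 and E2 had estimates of -0.43 (Ccne1, -1.28 to 0.42) and 0.54 (Ccne2, -0.34 to 1.43). Both were at a few CPM or less in every mouse, and neither estimate passed the test.

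The mitotic cyclins and their kinase were scarce. Cdk1, the kinase that opens mitosis, had 1.79, 1.71 and 3.02 CPM in CON and 2.21, 1.77 and 1.94 CPM in T + E2, a log2 fold change of -0.14 (95% interval -0.83 to 0.54). Ccna2 (cyclin A2) had 1.52, 1.84 and 3.21 CPM in CON and 3.25, 2.25 and 1.87 CPM in T + E2. Ccnb2 (cyclin B2) stood at 0.723 to 1.82 CPM in CON and 1.16 to 1.59 CPM in T + E2, with an estimate that rounds to 0 and an interval of -0.84 to 0.84. Ccnb1 (cyclin B1), with 3 to 13 counts in a mouse, had too few reads to be tested. In Cdk1 and Ccna2 the third CON mouse was the highest of its group, and in Ccna2 it nearly matched the highest T + E2 mouse.

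Before DNA can be copied, Cdc6 and Cdt1 load the ring of Mcm2 to Mcm7 onto replication origins. None of the 8 licensing genes passed the test of edgeR or DESeq2, 1 had an unadjusted p under 0.05 from edgeR, and their median log2 fold change rounded to 0. Mcm2 had 21.2, 23.4 and 25.5 CPM in CON and 20.8, 15.3 and 18.4 CPM in T + E2. The groups did not overlap, but the lowest CON mouse was just above the highest T + E2 mouse (log2 fold change -0.37, standard error 0.14, edgeR adjusted p = 0.103). The other subunits lay closer to 0. Estimates were 0.03 for Mcm4, 0.03 for Mcm5, 0.01 for Mcm6 and -0.01 for Mcm7, and the intervals of Mcm4 (-0.25 to 0.32), Mcm6 (-0.26 to 0.28) and Mcm7 (-0.29 to 0.27) leave no room for a change of 1 on the log2 scale. Mcm3 had an estimate of -0.11 (-0.63 to 0.40). The loader Cdt1 had 4.97, 4.40 and 5.03 CPM in CON and 3.32, 2.56 and 4.47 CPM in T + E2, which overlap (log2 fold change -0.48, edgeR adjusted p = 0.205). Cdc6 had 0.596 to 1.51 CPM in CON and 0.801 to 1.64 CPM in T + E2, and its interval of -0.96 to 1.01 holds changes in both directions.

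Rrm1, the large subunit of ribonucleotide reductase, which makes the building blocks of DNA, was the other gene that rose. It lies on chromosome 7, 102441695 to 102469771, and had 21.7, 21.9 and 25.0 CPM in CON and 28.9, 33.5 and 30.3 CPM in T + E2. The groups did not overlap, and the mean was 22.9 ± 1.83 CPM (SD, n = 3) in CON and 30.9 ± 2.35 CPM (SD, n = 3) in T + E2. Rrm1 had a log2 fold change of 0.44 and was called higher (standard error 0.11, 95% interval 0.19 to 0.68, edgeR adjusted p = 0.0241). The call was lost without CON mouse 1, CON mouse 2 or T + E2 mouse 2, with edgeR adjusted p-values of 0.07, 0.0845 and 0.0757. Without both replicate 2 libraries the estimate was 0.34 with an edgeR adjusted p of 0.187.

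The small subunit, Rrm2, is the one whose amount follows the cycle most closely. It had 8.08, 6.90 and 9.05 CPM in CON and 9.27, 9.07 and 8.28 CPM in T + E2, which overlap, and its log2 fold change was 0.15 (95% interval -0.21 to 0.51). Tyms, thymidylate synthase, had 4.37, 4.47 and 5.28 CPM in CON and 5.12, 5.36 and 6.01 CPM in T + E2 (0.22, -0.19 to 0.64). Pcna, the sliding clamp of the replication fork and at 7.82 ± 0.362 FPKM (SD, n = 3) in CON the third most abundant gene of the list, had 25.6, 26.9 and 28.9 CPM in CON and 27.3, 30.0 and 25.9 CPM in T + E2. Its log2 fold change of 0.03 had an interval of -0.20 to 0.26. The processed pseudogene Pcna-ps2 is 99.2% identical to Pcna over 781 bases and had 208 to 297 counts in a mouse, so reads may have been split between the 2. All 4 genes of DNA synthesis and nucleotide supply had estimates above 0, and of these Rrm1 alone passed the test.

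The promoter of Rrm1 is likewise shown because the gene was called, and it carries letters of the earlier, E2F-driven wave. It comes from RefSeq on GRCm38.p6, chr7:102441445-102441744 on the plus strand, and capitals mark CCAAT and the E2F letters TTCCCGCC:
Rrm1: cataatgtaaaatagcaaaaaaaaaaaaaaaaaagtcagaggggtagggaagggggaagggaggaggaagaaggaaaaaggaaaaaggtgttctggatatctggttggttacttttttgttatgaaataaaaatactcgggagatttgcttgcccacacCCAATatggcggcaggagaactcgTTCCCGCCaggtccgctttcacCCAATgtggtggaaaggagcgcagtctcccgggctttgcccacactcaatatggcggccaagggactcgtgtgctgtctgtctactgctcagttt
It held 1 E2F match and 2 of CCAAT, and no TTTGAA, whereas that of Top2a held TTTGAA and no E2F match.

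Promoters of this kind were found for 35 of the 45 genes. The E2F letters TTTGGCGC, TTTCGCGC or TTCCCGCC, on either strand, were in 7 of 35 (20%, exact binomial 95% interval 8.44 to 36.9%), against 3.39% of all 27025 mouse genes with promoters of this length. A gene was counted if any of its promoters held the letters, and 3 of the 35 had 2 promoters. They were those of Cdk1, Cdt1, Mcm3, Mcm5, Mcm6, Mcm7 and Rrm1, 5 of them licensing genes. CCAAT was in 26 of 35 (74.3%, 56.7 to 87.5%) against 41.1% of all genes. TTTGAA was in 13 of 35 (37.1%, 21.5 to 55.1%) against 20.2% of all genes, and all 13 also held CCAAT. These 13 were Mki67, Top2a, Ccnb2, Cdk1, Cdc20, Plk1, Aurka, Bub1b, Ttk, Cenpa, Cenpf, Kif11 and Mcm2, nearly all genes of mitosis. Only the promoter of Cdk1 held all 3 kinds, and 8 held none. The genes with TTTGAA had the lower median, 0.506 FPKM in CON and 0.523 in T + E2, against 1.36 and 1.17 FPKM for the 22 without it. Their levels overlapped, as Ccnb1 (0.0643 FPKM in CON) lacked TTTGAA and Mcm2 (2.64 FPKM in CON) held it. The median log2 fold change of the tested genes rounded to 0 with it and was 0.02 without it. A match is a run of letters and not a measured binding site. The genes were chosen by name as cell cycle genes, so these shares describe the list and carry no test.

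Genes of mitotic entry and exit were at or below a few CPM, and none of the 5 tested passed the test, also with DESeq2 or at an unadjusted p under 0.05. Cdc20, which switches on the ligase that ends mitosis, had 2.12, 1.97 and 2.20 CPM in CON and 2.77, 2.5 and 3.6 CPM in T + E2. The groups did not overlap, at 30 to 54 counts a mouse, and the log2 fold change of 0.49 did not pass the test (standard error 0.24, edgeR adjusted p = 0.185). Its processed pseudogene Gm7856 is 93.7% identical over 1512 bases. Aurka, the centrosome kinase, had 1.06, 1.38 and 2.20 CPM in CON and 1.45, 0.670 and 1.00 CPM in T + E2, with an estimate of -0.58 and a wide interval of -1.50 to 0.34. Its relative Aurkb, the kinase of the chromosomal passenger complex, had an estimate of -0.18 (-0.85 to 0.49), and Birc5 (survivin), its partner in that complex, 0.27 (-0.89 to 1.42). Plk1, the polo-like kinase, had -0.03 (-0.83 to 0.77). Cdc25c, the phosphatase that activates Cdk1, had 0, 4 and 4 counts in CON and 7, 7 and 4 in T + E2 and was not tested.

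Genes of the spindle and its checkpoint had estimates between -0.04 and 0.22. Bub1b, a checkpoint kinase and the most abundant of its group at 1.32 ± 0.363 FPKM (SD, n = 3) in CON, had 6.89, 7.49 and 4.40 CPM in CON and 6.99, 8.34 and 3.34 CPM in T + E2. In both groups mouse 3 was the lowest, and the log2 fold change was -0.01 (-0.81 to 0.79). The centromere genes Cenpa, Cenpe and Cenpf had estimates of 0.11, 0.01 and 0.20. The motors Kif11 and Kif20a, which push spindle poles apart and act in the final split of the cells, had 0.18 and 0.04, and the spindle assembly factors Tpx2 and Nusap1 had -0.04 and 0.22. None passed the test, also with DESeq2 or at an unadjusted p under 0.05, and the groups overlapped in all 8 of these genes. The checkpoint kinases Bub1 and Ttk had 5 to 12 and 3 to 13 counts in a mouse and were not tested.

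E2f1, the factor that drives entry into DNA synthesis, had the most negative estimate of the list. It had 3.64, 4.53 and 5.85 CPM in CON and 3.6, 3.11 and 2.40 CPM in T + E2. The groups touched without overlapping, as CON mouse 1 and T + E2 mouse 1 were almost level. The log2 fold change of -0.62 (standard error 0.26, 95% interval -1.21 to -0.03) had an edgeR adjusted p of 0.127. Foxm1, the factor of the mitotic wave, varied widely within both groups, with 1.19, 0.854 and 2.89 CPM in CON and 0.968, 1.34 and 2.60 CPM in T + E2 (log2 fold change -0.01, -1.23 to 1.21).

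Among the brakes of the cycle, Cdkn1a (p21), which responds to p53 and to stress, had 11.7, 10.3 and 8.30 CPM in CON and 17.2, 12.1 and 13.9 CPM in T + E2. All T + E2 mice were above all CON mice, by a small margin between CON mouse 1 and T + E2 mouse 2. The log2 fold change of 0.51 (standard error 0.18, 95% interval 0.09 to 0.93) had an edgeR adjusted p of 0.0853 and was not called. Cdkn1b (p27), a brake that is abundant in resting cells, was the fourth most abundant gene of the list at 7.09 ± 1.48 FPKM (SD, n = 3) in CON. It had 65.4, 44.6 and 49.2 CPM in CON and 46.6, 59.9 and 55.2 CPM in T + E2, which overlap (0.02, -0.35 to 0.39). Cdkn2a, the locus of p16 and p19Arf, was at the detection limit, with 3, 3 and 0 counts in CON and 3, 10 and 3 in T + E2, and was not tested.

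With no filter on low counts, the 5 genes left out of the test had edgeR adjusted p-values of 0.396 to 0.961. Expression per length in the list spanned a wide range, from 24.4 FPKM for Ccnd1 to 0.0643 FPKM for Ccnb1 in CON. The next most abundant genes were Cdk4, Pcna and Cdkn1b, and the next scarcest Ttk, Cdc25c and Cdkn2a, so brakes of the cycle stood near both ends. In this whole tissue, the number of dividing cells and the RNA per dividing cell cannot be told apart.

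**Figure D4:**
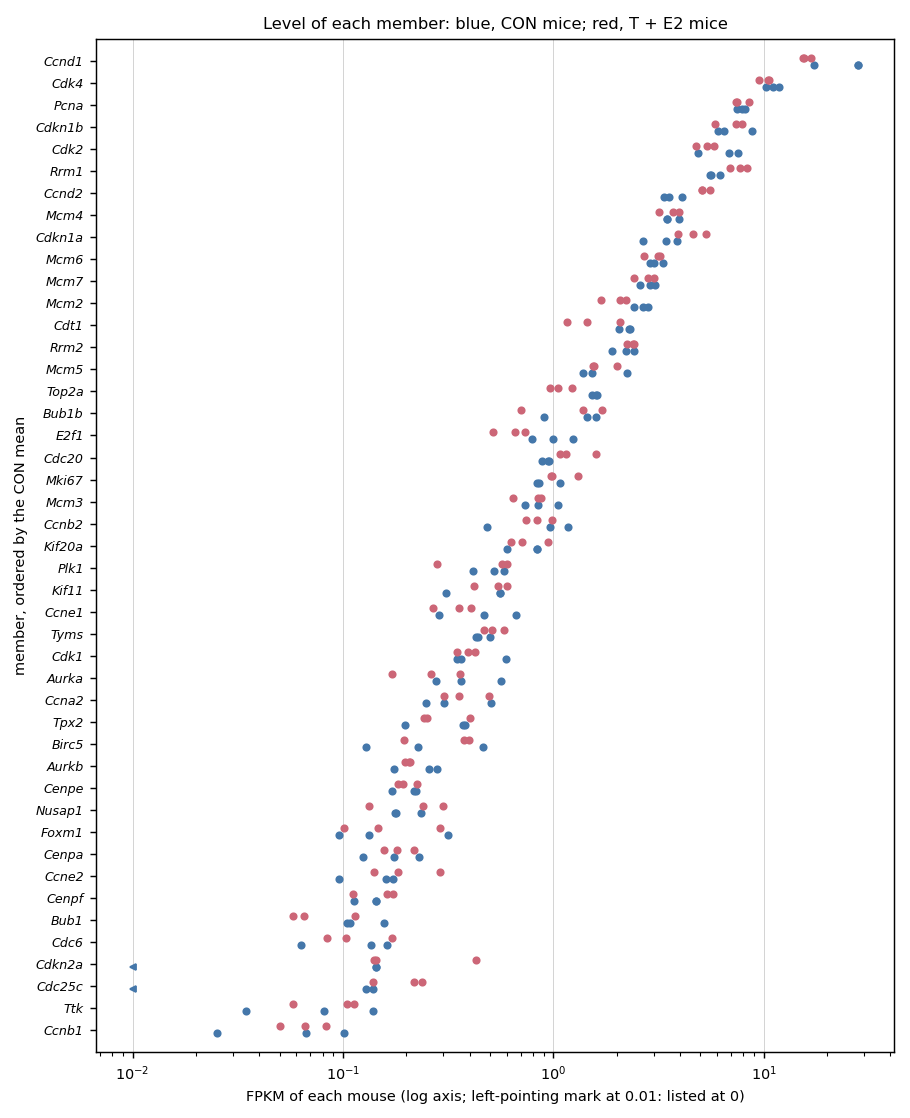
FPKM of every mouse (log axis) for all 45 genes, ordered by the CON mean; blue points are CON mice, red points T + E2 mice, and a mark at 0.01 stands for a gene listed at 0. Ccnd1 leads at 24.4 FPKM in CON and Ccnb1 is lowest at 0.0643 FPKM, and for most genes the colours overlap.

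Summed over the list, the level was close between the groups. The 23 genes of G2 and mitosis summed to 61.39, 58.03 and 71.3 CPM in CON and 69.18, 59.85 and 57.26 CPM in T + E2, so that T + E2 stood at 97.7 ± 14.5% of CON (SD from the 3 mice of each group). The highest mouse of all was CON mouse 3 and the lowest T + E2 mouse 3, with the others between. The 12 genes of replication summed to 142.5, 150.5 and 166.6 CPM in CON and 154.3, 161.0 and 155.2 CPM in T + E2, 102 ± 8.54% of CON. All 45 together were at 97.4 ± 7.76%, and without Ccnd1 and Cdk4, which held the largest shares, at 107 ± 7.43%. These sums weight each gene by its abundance and carry no test.

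Much of the spread in the list ran between mice of 1 group. Within CON, mouse 3 had the highest value for 28 of the 40 tested genes and the lowest for 3. The median deviation of the 40 genes from their mean over 6 mice, on the log2 scale, was 0.17 in CON mouse 3 and -0.21 in CON mouse 2, the library with most counts on seminal vesicle markers. Within T + E2 the medians were 0.11, 0.01 and -0.06 for mice 1, 2 and 3, all inside the range of the CON mice, and mouse 1 had the highest value for 20 genes. For the 19 tested genes of G2 and mitosis, CON mouse 2 was lowest at -0.27 and CON mouse 3 (0.19) stood beside T + E2 mouse 1 (0.22).

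**Figure D5:**
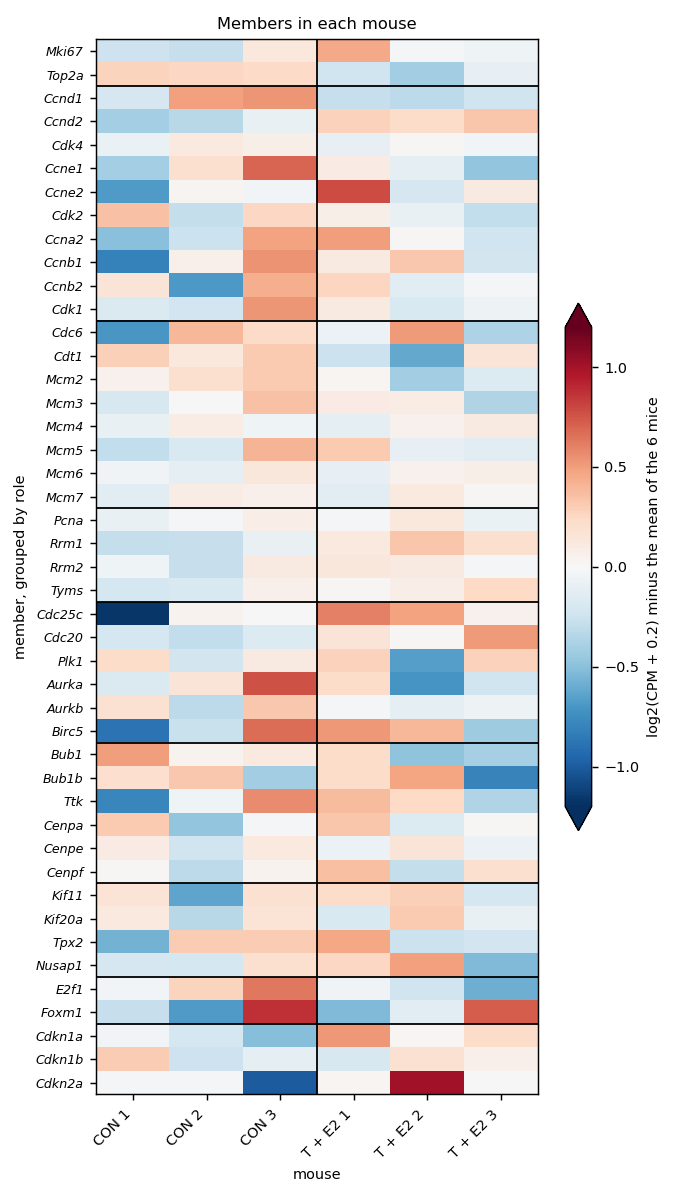
Each of the 45 genes (rows, grouped by role with black lines between groups) in each mouse (columns), as log2(CPM + 0.2) minus the mean of the 6 mice. CON mouse 3 is red for most genes and differs from CON mice 1 and 2 (median deviations 0.17, -0.09 and -0.21), and for 32 of the 40 tested genes the values of the groups overlap.

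Further genes of the cell cycle, 104 in 4 lists, were examined in the same fit. Of 98 tested, 8 were higher and 10 lower, or 18.4%, close to the 19.6% of all tested genes (10.4% higher and 9.25% lower). Without both replicate 2 libraries 3 were higher and 2 lower, in a fit that called 1354 of 15646 genes over the whole table. Among 12 inhibitors and quiescence genes 4 rose and none fell (33.3% called, against 19.6% of all tested genes), while 7 of the 12 estimates lay below 0 and the median log2 fold change was -0.04. Btg1, an antiproliferative gene, rose from 245, 196 and 200 CPM to 356, 343 and 374 CPM, by 0.74 on the log2 scale (edgeR adjusted p = 0.00315). Ccng1, a p53 target, rose by 0.64 (edgeR adjusted p = 0.00752) and Gadd45a, a growth arrest gene, by 0.41 (edgeR adjusted p = 0.0464). In all 3 the T + E2 mice were above the CON mice.

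Among 16 further G1 regulators tested, 2 rose and 3 fell (31.2% called), with a median log2 fold change of -0.02. E2f6, a repressor of the E2F family, rose by 0.57 (edgeR adjusted p = 0.00521), Tfdp1, the dimer partner of E2F factors, rose by 0.38 (edgeR adjusted p = 0.0134), and Cdc25a, a phosphatase that activates Cdk2, fell by 0.42 on the log2 scale (edgeR adjusted p = 0.0174). Of 23 further replication genes none rose and 2 fell (8.7% called), with a median of -0.12. Gmnn, geminin, which blocks Cdt1, fell by 1.11 on the log2 scale (edgeR adjusted p = 0.0162), from 3.51, 4.60 and 3.33 CPM to 1.52, 2.01 and 1.74 CPM. Pold1, the catalytic subunit of DNA polymerase delta, fell by 0.46 (edgeR adjusted p = 0.0438). Of 47 further mitotic genes 2 rose and 5 fell, 14.9% against 19.6% of all tested genes, with a median of -0.11. Wee1, the kinase that holds Cdk1 inactive, fell by 1.24 on the log2 scale (edgeR adjusted p = 0.00141), from 23.0, 22.6 and 30.1 CPM to 9.27, 11.6 and 11.3 CPM. Ncaph, a condensin subunit, rose by 0.88 (edgeR adjusted p = 0.00239) and Mad2l1, a checkpoint protein, by 0.89 (edgeR adjusted p = 0.00427). Kif15 (-0.98), Spc25 (-0.84), Anln (-0.74) and Stmn1 (-0.71) also fell on the log2 scale. Of the 47 estimates 17 lay above 0 and 30 below. The calls in the mitotic list thus hold both directions, and among those that fell Wee1 is an inhibitor of mitosis.

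Markers of the cell types a prostate sample can hold differed between the groups too. Of 8 luminal markers Epcam was higher and Pbsn, Cd24a and Krt18 were lower. Macrophage markers summed to 93.3 to 135 CPM in CON and 143 to 215 CPM in T + E2, with Mrc1 called higher of 4. Mrc1 itself had 31.0 to 47.4 against 63.6 to 114 CPM. Adgre1, Csf1r and Cd68 each overlapped between the groups and were not called. B and plasma cell markers summed to 24.4 to 103 and 80.7 to 156 CPM, with Cd79b higher of 5, and T cell markers to 2.39 to 7.48 and 3.47 to 6.88 CPM with none called of 3 tested. All 3 tested urothelial markers were higher (422 to 642 against 1370 to 1700 CPM). Most of that sum was Upk1a (274 to 503 against 1180 to 1420 CPM). The untested Upk3a had 0 counts in every CON mouse and 5, 99 and 3 in T + E2. Of 5 smooth muscle markers 2 were lower (3980 to 4910 against 3480 to 3800 CPM), and 1 of 4 basal markers was higher. None was called among those of fibroblasts, endothelium and adipocytes or for Ptprc of all leukocytes. No defining marker of these cells was at 0 in every mouse, though Upk3a had no counts in CON and Lep of fat none in T + E2. The part of these shifts in the values of Ccnd2, Rrm1, Top2a and the further genes was not tested.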

How the data were processed

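RNA of 6 mouse prostates, 3 per group, was compared, with groups and replicate numbers from the labels. The authors deposited 1 table of read counts per gene, without normalization, and of FPKM values, which for all 45 genes equal the count over gene length and library total. The submitters' processing notes name TopHat, Bowtie2 and HTSeq. Build, annotation and use of strand are not given in the sources used here. Coordinates are as deposited, and 35 of the 45 genes have the same start and end in GENCODE M21 on GRCm38.

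The 45 genes, the further lists, the tests and the alternatives were chosen with earlier results of these data known, so no list was tested as a whole. Named genes are the 45, at most 3 further genes per list with the smallest adjusted p, and cell type markers. Ccnd3, Kif15, Spc25, Anln, Stmn1 and overlapping genes or pseudogenes were named after their values were seen. The count test was run with edgeR 4.0.16 in R 4.3.3 (filterByExpr with a minimum count of 10 and total of 15, TMM, glmQLFit and glmQLFTest, Benjamini-Hochberg over 15580 genes). The standard error is the log2 fold change over the root of F. Procedures were tested on simulated counts, with changes of 1 or 2 on the log2 scale planted in well-counted genes only. Recovery of smaller changes, or of changes in scarce genes, was not tested. Alternatives were DESeq2 1.42.0, limma 3.58.1 on log2(FPKM + 0.1) and log2(FPKM + 1) with FPKM of at least 0.1 in at least 3 mice, other scalings, no filter, a replicate block, each mouse left out, and both replicate 2 libraries left out, the last added after seeing the data. Deviations of mice with the same number were hardly correlated over all tested genes, although both replicate 2 libraries held seminal vesicle markers. Libraries of a group differed beyond sampling noise (chi-square per degree of freedom 16.7 to 36.4). Similar transcripts were sought with BLAST+ 2.17.0+, and Python 3.11.15 with matplotlib 3.10.9 drew the plots. Promoters were matched by symbol in RefSeq tables for 35 genes, and not for Ccnd2, Ccna2, Foxm1, Aurkb, Tpx2, Ccne2, Ccnd1, Cdc25c, Kif20a and Mcm4.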

Additional observations from a re-analysis of the deposited data

How the results depend on the processing

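None of the 3 calls among the 45 genes stood under every alternative. Of the 2 genes that rose, 1 was called with the replicate block and 0 without both replicate 2 libraries or with the added threshold of 1 on the log2 scale, and 1 to 2 on leaving out single mice. Of genes that fell, against 1 in the report, 2 were called with total-count scaling, 2 with DESeq2, 0 with limma on log2(FPKM + 0.1), 0 with the replicate block, 0 without both replicate 2 libraries, 0 with the added threshold, and 0 to 1 on leaving out single mice. Of the further genes 8 rose, 7 with the replicate block, 3 without both replicate 2 libraries, 0 with the added threshold and 6 to 8 on leaving out single mice. The 10 that fell became 4 with the replicate block, 2 without both replicate 2 libraries, 2 with the added threshold and 4 to 8 on leaving out single mice. Fits on fewer mice called fewer genes over the whole table as well, with 1929 to 2741 on leaving out 1 mouse and 1354 without both replicate 2 libraries, against 3061.

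Beside the added threshold, which none of them passed, Ccnd2 lost its call in 1 of the alternatives, Rrm1 in 5 and Top2a in 8, and Ccnd1 gained one in 3. With the replicate block Top2a had an edgeR adjusted p of 0.0593 and Rrm1 of 0.0596. With limma on log2(FPKM + 0.1) Top2a had an adjusted p of 0.052. No called value changed sign. Of 560 alternative values of single genes 86 changed sign, all between values that were not called. The replicate numbers name different mice, and no pairing by number is given. Deviations from the group means over all tested genes correlated at -0.052, 0.028 and 0.046 for mice of the same number. Both replicate 2 libraries held seminal vesicle markers, and shared handling of mice with the same number was not tested. At the depth of these libraries, 5 genes could not be tested, and the intervals of Aurka, Birc5, Nusap1, Cdc20, Foxm1, Ccne1, Ccne2, Cdc6, Cdt1, E2f1 and Ccnd1 reached past a change of 1 on the log2 scale.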
